A study of Mus musculus with 2 samples.

Results

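The genes described here are 5 parts of the caspase cascade that runs through and around the apoptosome: Casp8, Apaf1, Cycs, Casp9 and Casp6. They were grouped by function, with no measured value in the rule that chose them, although earlier results of these data were known. They make up 5 of the 32286 features of the count matrices. All 5 were found in both libraries and had at least 50 pooled unique molecular identifiers (UMIs, 1 per captured transcript) in keratinocytes, as did 14571 features in all.

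The series profiled mouse skin epidermis by droplet single-cell RNA-seq, with 1 library per genotype. The first library came from mice with Survivin GOF and Krt14rtTA beside Involucrin-CREER and Rosa-SmoM2, called GOF below, and the other from mice with Involucrin-CREER and Rosa-SmoM2, called control. Both genotypes thus carry a tamoxifen-dependent Cre driven by the involucrin promoter, which switches on SmoM2, an active form of the hedgehog transducer Smoothened fused to YFP. The GOF mice carry in addition the Krt14rtTA driver and an allele for raised Survivin, the inhibitor of apoptosis family protein and mitotic regulator encoded by Birc5. Per the labels, cells were sorted for high integrin α6, absence of CD34 and presence of YFP, and the design text names a second, red reporter for Survivin in the GOF cells. The study asks about the part of Survivin in basal cell carcinoma formation. Age, sex, body site and number of mice are not given in the sources used here.

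Apoptosis is carried out by caspases, proteases that are made as inactive precursors. In the extrinsic route, ligand-bound death receptors recruit and activate Casp8. In the intrinsic route, cytochrome c, encoded by Cycs, leaves the mitochondrion and binds Apaf1, which assembles into the apoptosome and activates the initiator Casp9. Casp6 is an effector caspase, known for cleaving nuclear lamins. Cytochrome c also has a standing job in every respiring cell, as electron carrier between respiratory complexes. In the epidermis Casp8 is known for roles in barrier and wound responses beyond cell death.

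Cells with at least 1500 genes and at most 10% mitochondrial UMIs, after removal of likely doublets, numbered 6494 in the GOF and 10294 in the control library. Of these, 6310 GOF and 10092 control cells were keratinocytes, with 97893954 UMIs in GOF and 98940209 UMIs in control cells. Birc5 stood at 794 CPM (UMIs per 1000000 UMIs of the pooled cells) in GOF and 55.1 CPM in control keratinocytes, higher in the library labelled as Survivin GOF. Krt14, the basal keratin, was at 15322 CPM in GOF and 12890 CPM in control cells. YFP transcripts, the reporter of the sort, were sparse, at 7.89 CPM in GOF and 12.3 CPM in control cells. The libraries also differed in sex: Xist stood at 552 CPM in GOF and 2.71 CPM in control cells, and 1805 GOF and 7330 control keratinocytes were called male from their Y-linked and Xist UMIs. Median depth was 12324.5 UMIs per kept GOF cell and 7648 per kept control cell, and the libraries shared 20 barcodes among kept cells. With 1 library per genotype no difference could be tested: intervals below are exact 95% intervals for counting error and hold nothing of the spread between mice. Genotype and library cannot be told apart. Sex differs with them as well, except where male-called cells are compared.

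Keratinocytes were divided by the UMIs of marker genes per 10000 UMIs of the cell. Hedgehog-high cells (Gli1, Ptch1, Hhip and others, gate 7) numbered 802 in the GOF and 1442 in the control library. Sebaceous cells (Scd1, Mgst1, Pparg and others, gate 70) numbered 117 in the GOF and 290 in the control library, and upper follicle cells (Krt79, Plet1, Gata6 and others, gate 70) 221 in the GOF and 257 in the control library. Tail scale cells (Krt36, Krt84, Krt35, gate 200) numbered 195 in the GOF and 502 in the control library, and suprabasal cells (Krt1, Krt10 and others, gate 400) 521 in the GOF and 774 in the control library. Cells below every gate, called ungated, numbered 2437 in the GOF and 4860 in the control library, and basal-high cells (Krt14, Krt5, Krt15 and others, gate 400) 2017 in the GOF and 1967 in the control library. These names stand for ranges of marker content, not for cell types. Within 20% of the basal gate, on either side, lay 1618 GOF and 1844 control keratinocytes of any state. For the suprabasal gate these were 372 GOF and 688 control keratinocytes. The states overlap in markers. Tail scale cells carried a median of 366 suprabasal marker UMIs per 10000 in the GOF and 336 in the control library, and sebaceous cells 26.0 upper follicle marker UMIs in the GOF and 26.7 in the control library. YFP was highest in hedgehog-high cells, at 32.0 CPM in GOF and 33.4 CPM in control cells, and reached 12.7 CPM in ungated control cells. Among markers of other cells, 5 fibroblast genes summed to 657 CPM in GOF and 514 CPM in control keratinocytes, almost all of it Dcn, at 654 CPM in GOF and 502 CPM in control cells, and none of the 5 was at 0 in either library. Hedgehog-high cells carried a median of 17.5 fibroblast marker UMIs per 10000 in GOF and 4.98 in control cells. The part of these transcripts in the values below was not tested.

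The members that differed most between cell states were Apaf1, Cycs and Casp6, and the 250 bases before their RefSeq transcription start (mouse build GRCm38.p6) are shown for that reason. The Apaf1 stretch is chr10:91082744-91082993 (minus strand), the Cycs stretch chr6:50566570-50566819 (minus strand) and the Casp6 stretch chr3:129901165-129901414 (plus strand). Each is written 5′ to 3′ along its gene, and capitals mark matches to 5 motifs searched on both strands.
Apaf1: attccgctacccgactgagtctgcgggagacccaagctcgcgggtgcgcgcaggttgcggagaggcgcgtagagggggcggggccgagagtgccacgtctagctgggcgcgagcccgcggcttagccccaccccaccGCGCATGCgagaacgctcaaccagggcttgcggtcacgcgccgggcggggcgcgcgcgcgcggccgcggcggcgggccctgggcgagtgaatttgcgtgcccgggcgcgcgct
Cycs: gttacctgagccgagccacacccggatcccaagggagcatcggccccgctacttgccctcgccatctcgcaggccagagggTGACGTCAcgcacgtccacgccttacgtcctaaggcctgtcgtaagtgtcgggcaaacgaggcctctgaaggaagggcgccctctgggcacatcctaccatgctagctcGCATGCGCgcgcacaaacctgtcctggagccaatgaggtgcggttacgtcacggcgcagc
Casp6: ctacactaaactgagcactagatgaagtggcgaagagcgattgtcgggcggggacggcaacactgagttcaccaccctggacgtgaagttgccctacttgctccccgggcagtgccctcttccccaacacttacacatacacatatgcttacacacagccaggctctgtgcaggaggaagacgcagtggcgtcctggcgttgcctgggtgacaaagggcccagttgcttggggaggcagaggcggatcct
The motifs were the core of the site for NRF1, a regulator of respiratory genes (GCATGCGC, in 2.26% of 32851 promoter stretches of this length), the cyclic AMP response element (TGACGTCA, 1.55%), E2F sites (TTTCGCGC, 0.256%, and TTTGGCGC, 0.417%) and the GLI site of hedgehog signalling (TGGGTGGTC, 0.225%). The Cycs stretch held a cyclic AMP response element 169 bases and an NRF1 core 60 bases before the start. The Apaf1 stretch held an NRF1 core 113 bases before the start, on the other strand. The Casp6 stretch held none of these letters, nor did those of Casp8 and Casp9, which are not shown. A match describes the sequence and is not a shown site.

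Between the genotypes the levels of the 5 genes lay close together. No member passed a 1.5-fold difference over all keratinocytes, where 12.1% of 14571 features did (970 features, 6.66%, were higher in GOF cells, and 797, 5.47%, lower). The largest ratio was that of Apaf1, at 1.15 (interval 1.02 to 1.29). Cycs lay slightly below 1, and the intervals of the 3 caspases held 1. The median feature was itself 0.08 higher in GOF cells on the log2 scale.

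**Figure D1:**
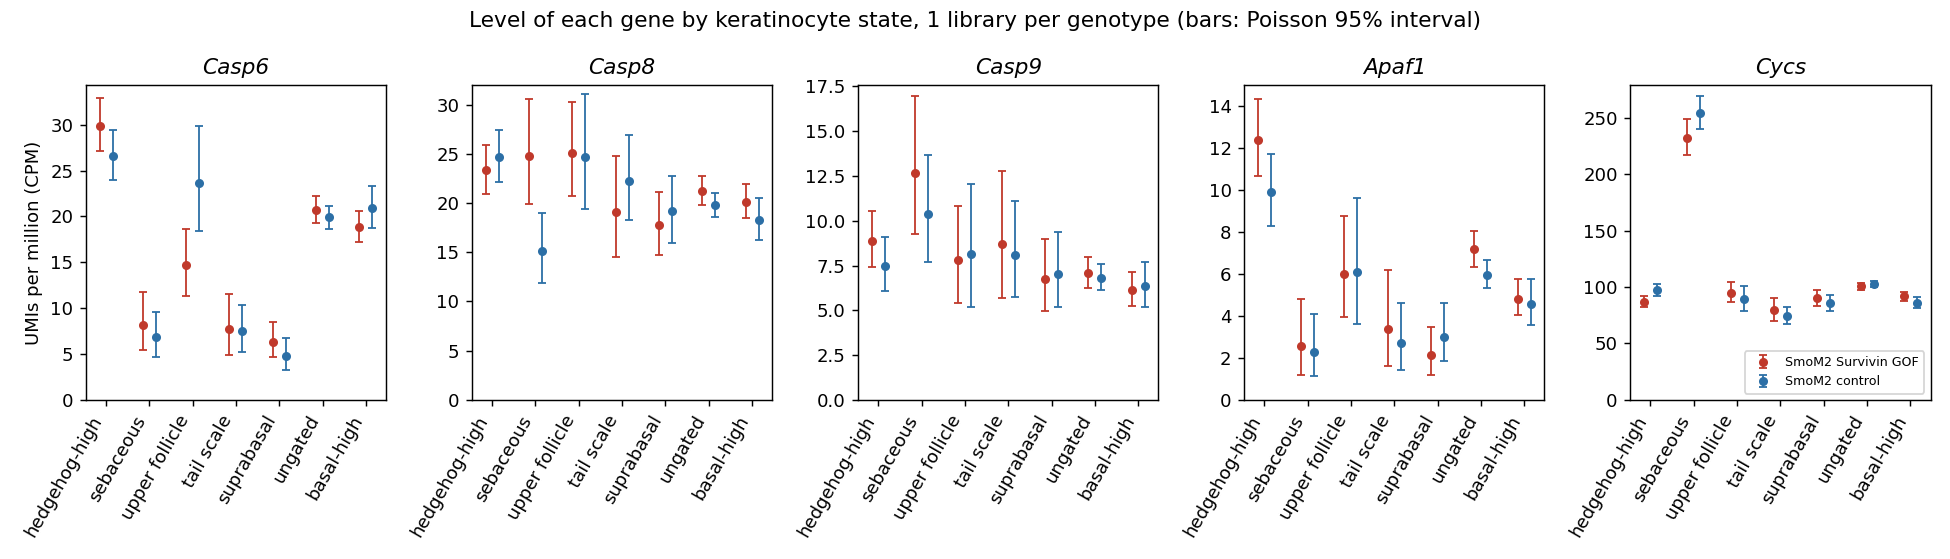
Level of each gene in CPM (vertical axis) by keratinocyte state (horizontal axis) in the GOF (red) and control (blue) library, with 95% Poisson intervals. Casp6 was lowest in suprabasal, tail scale and sebaceous cells, Apaf1 highest in hedgehog-high cells and Cycs highest in sebaceous cells in both libraries.

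Casp8, the initiator of the extrinsic route, was the most even of the caspases. The gene (ENSMUSG00000026029) lies on chromosome 1 at 58795374 to 58847503 in mm10, on the plus strand. Over all keratinocytes it stood at 21.2 CPM in GOF and 20.2 CPM in control cells, a ratio of 1.05 (0.987 to 1.12). Across states it ran between 17.7 CPM in suprabasal and 25.1 CPM in upper follicle GOF cells, and between 15.1 CPM in sebaceous and 24.7 CPM in control cells of the hedgehog-high and upper follicle states. No state differed from basal-high cells by 1.5-fold in either library. Of all features, that fold was passed in either direction by 42.4% in hedgehog-high, 53.8% in sebaceous, 26.9% in upper follicle, 37.7% in tail scale, 34% in suprabasal and 18.5% in ungated GOF cells. In the control library it was passed by 38.3% in hedgehog-high, 59.2% in sebaceous, 26.2% in upper follicle, 30.7% in tail scale, 32.3% in suprabasal and 20.1% in ungated cells. In suprabasal cells, where Casp6 was low, Casp8 was at 17.7 CPM in GOF and 19.2 CPM in control cells, against 20.1 CPM in basal-high GOF and 18.3 CPM in basal-high control cells.

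Sebaceous cells were the exception between genotypes for Casp8. Its level there was 24.8 CPM (19.9 to 30.6) in GOF and 15.1 CPM (11.9 to 19.0) in control cells, from 88 GOF and 73 control UMIs, a ratio of 1.64 (1.19 to 2.27). These intervals do not overlap. In sebaceous cells 15.9% of 8345 features passed 1.5-fold and 13.1% were higher in the GOF library, so a feature past this fold is not rare there. The log2 ratio was 0.71, and 0.84 in male-called cells, but with doublets kept it was 0.56, under the 1.5-fold bound.

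Apaf1, the scaffold of the apoptosome, was higher the more hedgehog target transcripts the cells held. It (ENSMUSG00000019979) lies on chromosome 10 at 90989311 to 91082770 in mm10, on the minus strand. In the GOF library it stood at 12.4 CPM (10.6 to 14.3) in hedgehog-high and 4.81 CPM (4.01 to 5.73) in basal-high cells, and in the control library at 9.88 CPM (8.29 to 11.7) in hedgehog-high and 4.57 CPM (3.58 to 5.76) in basal-high cells. Hedgehog-high cells were thus the highest state in both libraries, and their interval met that of no other state in the GOF library. In the control library the interval met only that of upper follicle cells, at 6.09 CPM (3.61 to 9.62). The log2 difference from basal-high cells was 1.36 in GOF and 1.11 in control cells. Many features shared this direction: 32% of 12179 were at least 1.5-fold higher in hedgehog-high than basal-high GOF cells, and 30.6% of 11725 in control cells. The median feature differed by 0.32 (log2) in GOF and 0.34 in control cells.

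The gradient was also seen across bins of hedgehog marker content. In GOF cells Apaf1 stood at 4.90 CPM with under 1 marker UMI per 10000, 6.57 CPM at 1 to 3, 9.89 CPM at 3 to 7, 11.7 CPM at 7 to 14 and 15.3 CPM at 14 or more. In control cells the same bins had 4.56, 4.84, 7.10, 8.68 and 14.8 CPM. Each bin was higher than the bin before it in both libraries, although neighbouring intervals often overlapped. Cells with a YFP UMI had 11.0 CPM of Apaf1 in the GOF and 7.76 CPM in the control library, above the 5.42 CPM of control cells with none. GOF cells with none had 6.0 CPM.

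The low end of the Apaf1 range was in differentiated cells. In the GOF library it was at 2.11 CPM in suprabasal, 2.54 CPM in sebaceous and 3.36 CPM in tail scale cells, and in the control library at 2.99 CPM in suprabasal, 2.28 CPM in sebaceous and 2.70 CPM in tail scale cells. These values rest on 9 to 20 UMIs each, and their intervals overlap one another. The log2 difference of suprabasal from basal-high cells was -1.19 in the GOF library, where 25.1% of features were lower by 1.5-fold or more, and -0.61 in the control library, where 20% were. As ratios to basal-high cells, GOF suprabasal (0.438, 0.238 to 0.751) and control sebaceous cells (0.499, 0.238 to 0.947) had intervals below 1. The intervals of the others held 1, among them control suprabasal cells (0.655, 0.378 to 1.09).

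**Figure D2:**
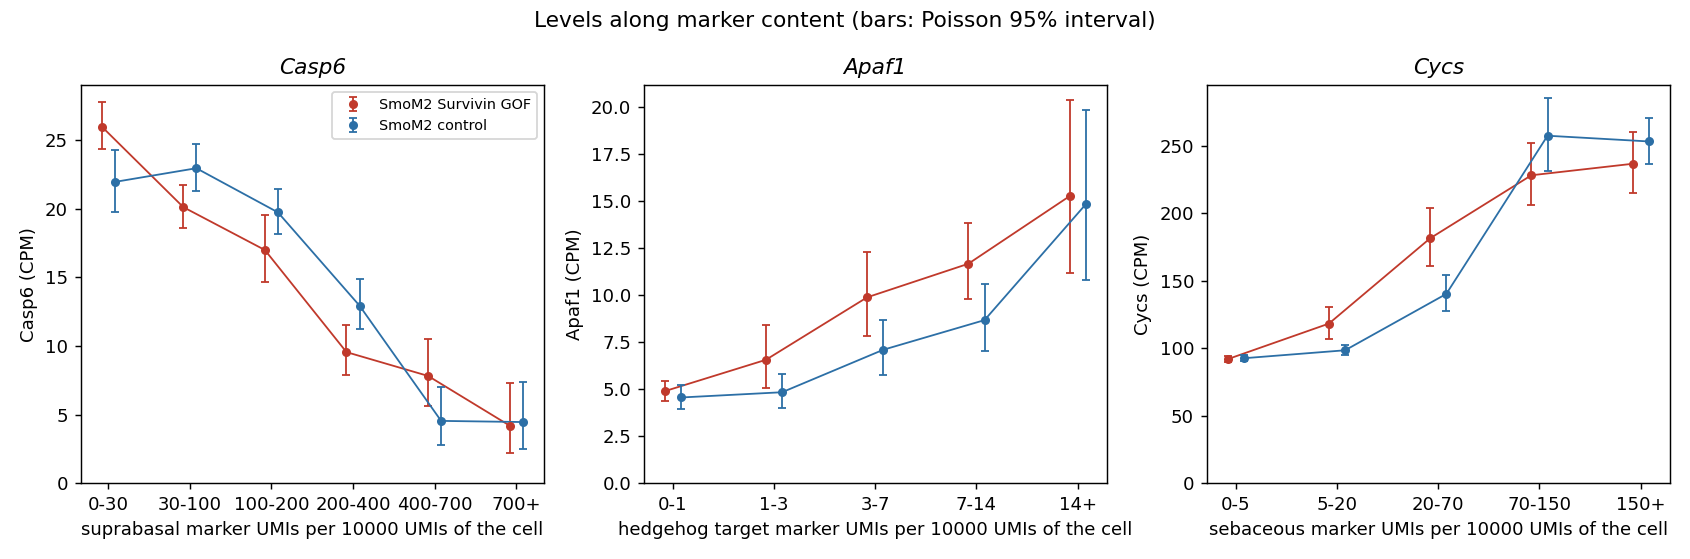
Levels in CPM (vertical axes) of Casp6 along suprabasal, Apaf1 along hedgehog target and Cycs along sebaceous marker content (horizontal axes, marker UMIs per 10000 UMIs of the cell) in GOF (red) and control (blue) keratinocytes, with 95% Poisson intervals. From the lowest to the highest bin Casp6 goes down, and Apaf1 and Cycs go up, in both libraries.

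Between genotypes Apaf1 stood at 6.60 CPM in GOF and 5.75 CPM in control keratinocytes. The log2 ratio was 0.33 in hedgehog-high cells (ratio interval 0.998 to 1.58), and the ratio was 1.20 (1.02 to 1.42) in ungated cells and 1.05 (0.782 to 1.43) in basal-high cells. Over all mitotic cells it stood at 10.2 CPM (8.75 to 11.8) in GOF and 6.97 CPM (6.01 to 8.04) in control cells, a ratio of 1.46 (1.18 to 1.80). In mitotic ungated cells the ratio was 1.60 (1.21 to 2.11), from 102 GOF and 115 control UMIs. It was 1.31 (0.878 to 1.95) in mitotic hedgehog-high and 1.13 (0.550 to 2.35) in mitotic basal-high cells. The share of all features past 1.5-fold was not counted in such splits by phase and state. Such splits were made for all members, and the tally of state ratios below leaves them out. Other members passed 1.5-fold in some of them, for example Casp6 in S-phase basal-high cells, at 0.628 (0.423 to 0.942). In cells low in cycle genes the Apaf1 ratio was 1.20 (0.977 to 1.48). Among these it was 1.04 (0.744 to 1.45) in ungated and 0.960 (0.607 to 1.54) in basal-high cells. Within hedgehog-high cells low in cycle genes Apaf1 stood at 10.5 CPM (7.92 to 13.8) in GOF and 5.80 CPM (3.49 to 9.06) in control cells, a ratio of 1.82 (1.06 to 3.25) from 54 GOF and 19 control UMIs. In those low-cycle control cells the level was no longer far from low-cycle basal-high cells, at 4.18 CPM (2.86 to 5.91), a log2 difference of 0.47, while in low-cycle GOF cells it was 1.39.

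Cycs, which encodes somatic cytochrome c, was set apart by sebaceous cells. The gene (ENSMUSG00000063694) lies on chromosome 6 at 50562563 to 50566538 in mm10, on the minus strand. In the GOF library it stood at 233 CPM (217 to 249) in sebaceous and 91.7 CPM (88.1 to 95.5) in basal-high cells, and in the control library at 255 CPM (241 to 269) in sebaceous and 86.1 CPM (81.6 to 90.8) in basal-high cells. In every other state it lay between 74.5 and 103 CPM, and none of those intervals reached the sebaceous ones. The log2 difference from basal-high cells was 1.34 in the GOF library, where 18.3% of features were higher by 1.5-fold or more, and 1.56 in the control library, where 18% were. With cells set by a marker score cut at 1 SD the control difference was 0.92. Along sebaceous marker content it stood at 92.0, 118, 182, 228 and 237 CPM in the 5 bins from under 5 to 150 or more in GOF cells, and at 92.7, 98.6, 140, 258 and 253 CPM in control cells.

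The partners of cytochrome c in the respiratory chain were high in the same cells. Of 13 genes for the enzyme that loads heme onto cytochrome c and for subunits of the complexes on either side of it, 10 were at least 1.5-fold higher in sebaceous than basal-high cells in each library and none lower. Their median log2 difference was 1.09 in the GOF library, against -0.26 over all features, and 1.14 in the control library, against -0.37. Low Casp6 and Apaf1 thus stood beside high Cycs in sebaceous cells: 2 of the 5 members, Cycs and Casp9, passed 1.5-fold upward there and 2, Casp6 and Apaf1, downward, in each library. Of all features in sebaceous cells, 18.3% in the GOF and 18% in the control library were higher by that fold. Lower by it were 35.4% in the GOF and 41.1% in the control library, close to the 2 of 5 members. The GOF Apaf1 ratio, 0.527 (0.236 to 1.03), rests on 9 sebaceous UMIs and has 1 in its interval.

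Between genotypes Cycs stood at 99.4 CPM in GOF and 104 CPM in control keratinocytes, a ratio of 0.958 (0.932 to 0.985). This small gap did not hold in male-called cells, where the levels were 113 CPM in GOF and 105 CPM in control cells. The ratio there was 1.07 (1.03 to 1.12). Only 30 control keratinocytes were called female, so female-called cells were not compared between genotypes. Within the GOF library female-called cells had 91.6 CPM and male-called cells 113 CPM, a ratio of 0.814 (0.779 to 0.851). Sex and mouse cannot be told apart here, and these ratios were not matched for state shares. The other 4 genes differed little between female-called and male-called GOF cells, with ratios between 0.936 and 1.02 and intervals that held 1. Cycs has 10 near-identical copies in the annotation (at least 90% identity over 200 bases or more), and Gm10053, the copy among the features, had 417 UMIs beside 20459 of Cycs, so the split of reads between them is uncertain.

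Casp9, the initiator that the apoptosome activates, was highest in sebaceous cells and lay close together between genotypes. The gene (ENSMUSG00000028914) lies on chromosome 4 at 141793612 to 141815976 in mm10, on the plus strand, and overlaps the antisense genes Cela2a and Ctrc. It stood at 7.35 CPM in GOF and 7.13 CPM in control keratinocytes, a ratio of 1.03 (0.929 to 1.15). Its level in sebaceous cells was 12.7 CPM (9.26 to 17.0) in GOF and 10.4 CPM (7.70 to 13.7) in control cells, against 6.14 CPM (5.23 to 7.16) in basal-high GOF and 6.35 CPM (5.17 to 7.72) in basal-high control cells. The ratio of sebaceous to basal-high cells was 2.07 (1.45 to 2.89) in the GOF and 1.63 (1.14 to 2.32) in the control library. Among cells low in cycle genes it was 2.17 (1.43 to 3.25) in the GOF library. In such control cells it was 1.49 (0.984 to 2.26), under 1.5-fold and with 1 in its interval. The other states lay between 6.14 and 8.87 CPM. Among them the intervals overlapped within the control library. In the GOF library hedgehog-high cells, at 8.87 CPM (7.41 to 10.5), lay above basal-high cells. The GOF sebaceous interval overlapped that of hedgehog-high cells, so the counts do not settle which of them was highest. In the control library upper follicle cells came next after sebaceous cells, at 8.12 CPM from 24 UMIs. In GOF cells low in cycle genes Casp9 was at 11.3 CPM in hedgehog-high and 5.99 CPM in basal-high cells, a ratio of 1.89 (1.32 to 2.69), and in such control cells at 8.55 CPM in hedgehog-high and 6.93 CPM in basal-high cells.

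Casp6, the effector, was low wherever cells were differentiated. The gene (ENSMUSG00000027997) lies on chromosome 3 at 129901425 to 129914103 in mm10, on the plus strand. In the GOF library it stood at 6.33 CPM (4.62 to 8.47) in suprabasal and 18.9 CPM (17.3 to 20.6) in basal-high cells, and in the control library at 4.79 CPM (3.28 to 6.76) in suprabasal and 20.9 CPM (18.7 to 23.3) in basal-high cells. Tail scale cells had 7.72 CPM in the GOF and 7.49 CPM in the control library, and sebaceous cells 8.18 CPM in the GOF and 6.84 CPM in the control library. The intervals of these 3 states overlap one another and lie below those of the other states, upper follicle GOF cells excepted, whose lower bound of 11.4 CPM is just under the sebaceous and tail scale upper bounds. The log2 difference of suprabasal from basal-high cells was -1.58 in the GOF library, against a median of -0.19 over all features, and -2.12 in the control library, against -0.07. In male-called GOF cells the difference was -0.997. Barcodes that failed the cell filter had 11.7 CPM in the GOF and 15.4 CPM in the control library, above the suprabasal levels.

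The top of the Casp6 range was in hedgehog-high cells. The level was 29.9 CPM (27.2 to 32.9) in GOF and 26.6 CPM (23.9 to 29.4) in control cells. Within its library the GOF interval met that of no other state, and the control interval met that of upper follicle cells, at 23.7 CPM (18.5 to 29.9). The log2 difference from basal-high cells was 0.66 in the GOF library, against a median of 0.32 over all features, of which 32% were higher by 1.5-fold or more. In the control library it was 0.35, under 1.5-fold and close to the median of 0.34, and 30.6% of features were higher by that fold. Along suprabasal marker content Casp6 stood at 26.0, 20.1, 17.0, 9.56, 7.82 and 4.2 CPM in the 6 bins from under 30 to 700 or more marker UMIs in GOF cells. In control cells the same bins had 22.0, 23.0, 19.7, 12.9, 4.54 and 4.46 CPM. It was also low at the high end of sebaceous marker content, at 4.37 CPM in GOF and 4.11 CPM in control cells with 150 or more such UMIs.

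Between genotypes Casp6 stood at 19.4 CPM in GOF and 18.8 CPM in control keratinocytes, a ratio of 1.03 (0.967 to 1.10). Upper follicle cells differed by more, with 14.7 CPM (11.4 to 18.7) in GOF and 23.7 CPM (18.5 to 29.9) in control cells, a ratio of 0.620 (0.436 to 0.881) from 66 GOF and 70 control UMIs. The intervals barely overlap. Of 9162 features, 10.1% passed 1.5-fold in these cells and 4.02% were lower in GOF. The log2 ratio was -0.69, and it fell short of 1.5-fold with cells set by a marker score cut at 1 SD (-0.32) or 1.5 SD (-0.41) and in male-called cells (-0.30). Upper follicle cells with high cycle genes were few, but the shares differed: 7.24% were mitotic in the GOF and 14.8% in the control library. Among low-cycle upper follicle cells the ratio was 0.706 (0.433 to 1.16), short of 1.5-fold and with 1 in its interval. Among mitotic ones it was 0.324 (0.0914 to 0.953), from 5 GOF and 14 control UMIs.

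**Figure D3:**
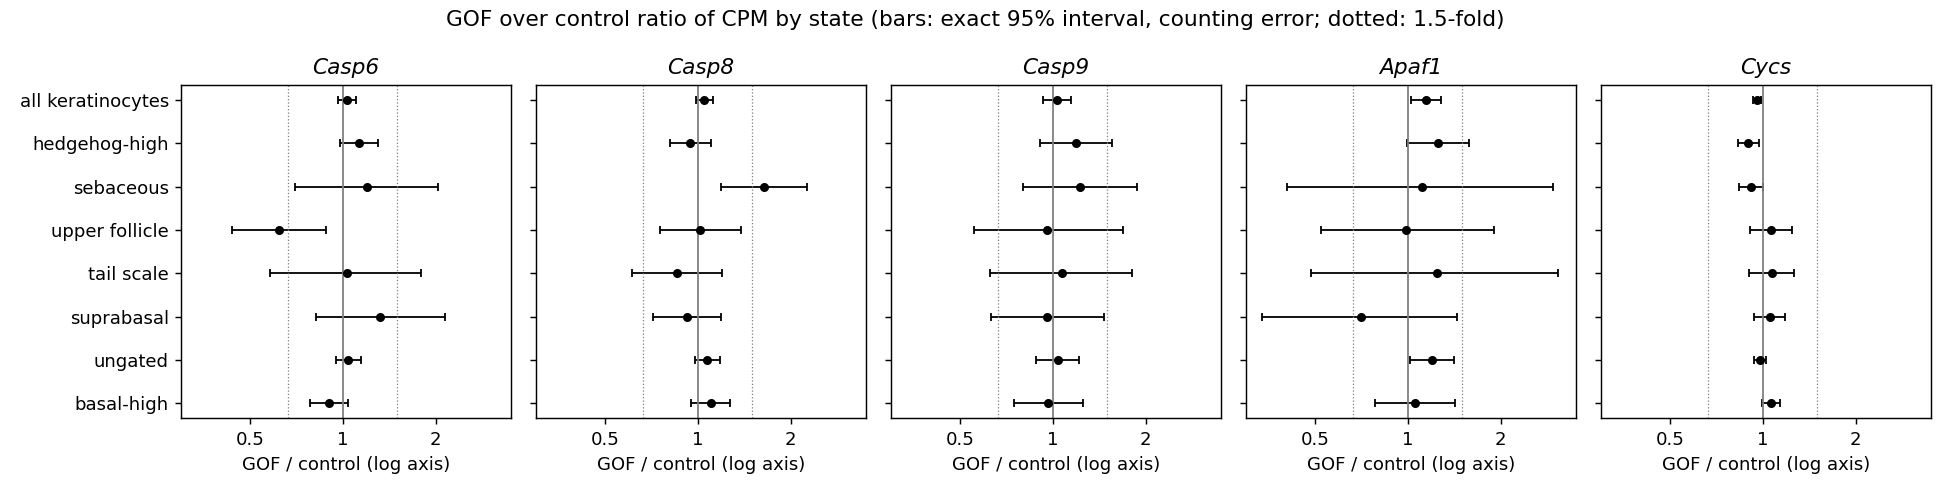
Ratio of GOF to control CPM (horizontal log axis) of each gene over all keratinocytes and in each state (rows), with exact 95% intervals for counting error; dotted lines mark 1.5-fold. Casp6 in upper follicle cells (0.620) and Casp8 in sebaceous cells (1.64) lie past the dotted lines.

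Of the 35 ratios of 5 genes in 7 states, 2 passed 1.5-fold, the Casp6 and Casp8 values above, and 5 had an interval that left out 1. For 16 of them, those 2 included, the interval reached past 1.5-fold, so that a difference of this size cannot be dismissed at their depth. Of all features, 11.5% passed 1.5-fold in either direction in hedgehog-high, 15.9% in sebaceous, 10.1% in upper follicle, 10.3% in tail scale, 9.01% in suprabasal, 13.3% in ungated and 10.8% in basal-high cells.

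Cell cycle genes were a further axis along which the genes differed. Cells were called mitotic or S from 10 or more UMIs per 10000 of core mitotic or S-phase genes, and low-cycle from small contents of both. Apaf1 stood at 4.90 CPM in low-cycle, 8.22 CPM in S and 10.2 CPM in mitotic GOF cells, and at 4.08 CPM in low-cycle, 8.0 CPM in S and 6.97 CPM in mitotic control cells. Casp8 stood at 19.2, 25.4 and 24.7 CPM in low-cycle, S and mitotic GOF cells and at 17.8, 25.1 and 23.5 CPM in control cells. Casp6 was at 17.7, 19.2 and 22.1 CPM in GOF and 15.8, 20.1 and 20.6 CPM in control cells. Cycs stood at 92.4, 105 and 121 CPM in GOF and 100, 104 and 114 CPM in control cells. Among these groups Casp9 was instead highest in low-cycle cells. It was at 7.72, 6.44 and 5.88 CPM in GOF and 8.03, 6.26 and 6.60 CPM in control cells. Cells between the phase bounds, not compared here, had 8.79 CPM of Casp9 in GOF and 6.65 CPM in control cells.

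Apaf1 passed 1.5-fold between phases, and the other 4 genes did not. Of all features, 20.6% passed it in either direction in S and 26.7% in mitotic GOF cells, and 26.8% in S and 24.1% in mitotic control cells. Its log2 difference from low-cycle cells was 0.75 in S and 1.06 in mitotic GOF cells, and 0.97 in S and 0.77 in mitotic control cells. In GOF cells 12.4% of features in S and 15.3% in mitosis were higher by 1.5-fold or more, and in control cells 18% in S and 15.6% in mitosis. Phase and state overlap: 42.9% of hedgehog-high and 94.0% of suprabasal GOF cells were low-cycle, as were 26.4% of hedgehog-high and 80.7% of suprabasal control cells. The part of free RNA in the phase calls was not tested. With phases called after thinning each cell to 3000 UMIs, the Apaf1 differences were 0.26 in S and 0.50 in mitotic GOF cells. In control cells they were 0.63 in S, just past 1.5-fold, and 0.47 in mitosis. No intervals were computed for these differences, which rest on few UMIs. Apaf1 was found in 1.95% of thinned GOF and 1.52% of thinned control keratinocytes.

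**Figure D4:**
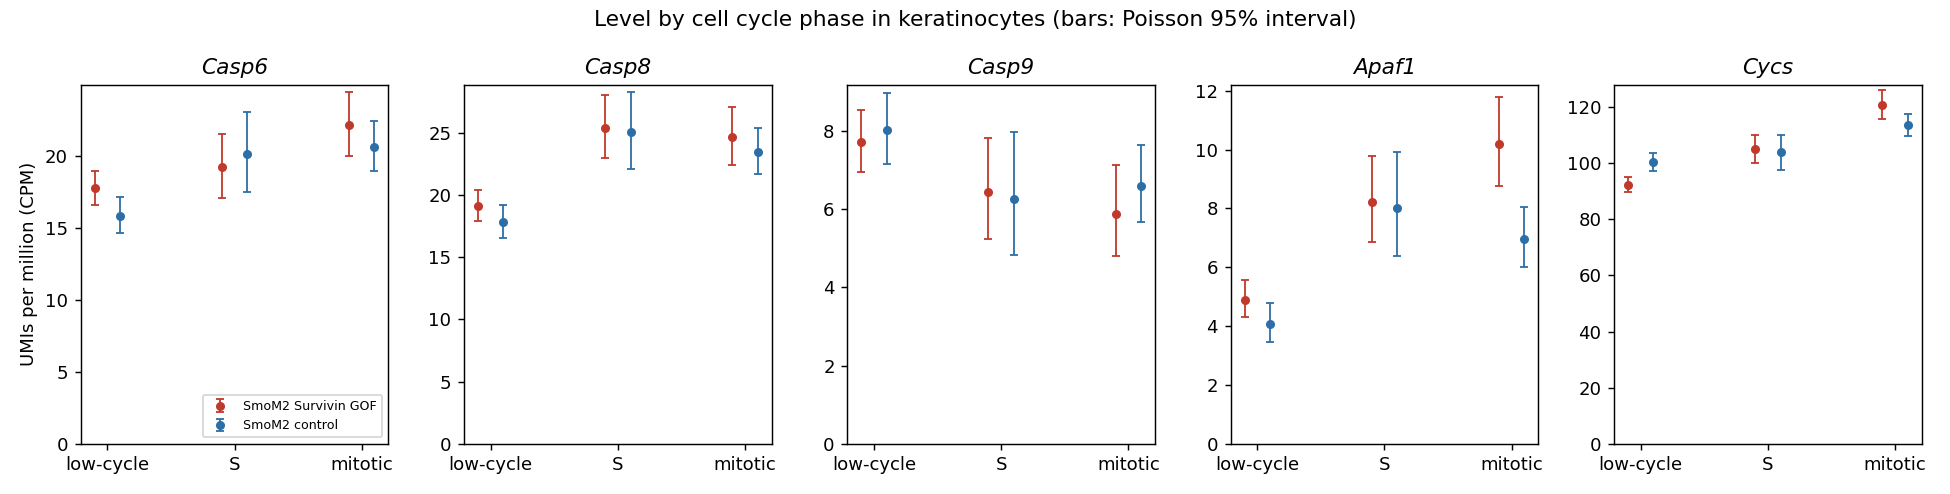
Level of each gene in CPM (vertical axis) in low-cycle, S and mitotic keratinocytes of the GOF (red) and control (blue) library, with 95% Poisson intervals. Apaf1 is lowest in low-cycle cells in both libraries, and in mitotic cells its GOF level (10.2 CPM) lies above the control level (6.97 CPM).

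The members did not move as 1 block. Over 12 state-by-library populations of at least 200 cells, Pearson's r of log2(CPM + 1) was 0.90 between Apaf1 and Casp6, 0.70 between Apaf1 and Casp8 and 0.61 between Cycs and Casp9. It was -0.27 between Cycs and Apaf1 and near 0 between Casp9 and Apaf1 (-0.0035). The points share libraries and depth, and the coefficients are a description. GOF sebaceous (117) and GOF tail scale (195) cells were too few to enter, so the control library gave the only sebaceous population. Cycs stood at 255 CPM there and between 74.5 and 103 CPM in the other populations, so its coefficients lean on that population. Among 10610 genes, the patterns most like that of Cycs belonged to Psma1 (r = 0.992), a proteasome subunit, and to Ndufab1, Uqcrq and Ndufs3, which encode respiratory chain subunits, and Dhrs7b. Those most like Apaf1 were Atf2 (0.987), a transcription factor, Pygo1, Gemin8, Mta1 and Six5. Casp6 was most like Atp23 (0.991), Tmem138, Med31, Lrwd1 and Rsu1. The closest genes to Casp8 were Ube2w (0.959), Ip6k1, Gpank1 and Arhgap17, and those to Casp9 were Bag2 (0.918), a cochaperone, C9orf72, Pik3c2b, Tfg and Pstk.

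Around the members, most of the cell death genes did not pass 1.5-fold between genotypes. Of all features, 12.1% passed it (6.66% higher and 5.47% lower in GOF cells). Few or no genes past this fold in a short list, here and below, are thus not particular to that list. Of 7 other caspases, 2 were at least 1.5-fold higher in GOF keratinocytes and none lower. Casp12, an inflammatory-type caspase of the endoplasmic reticulum, stood at 2.67 CPM in GOF and 0.839 CPM in control cells, a ratio of 3.18 (2.47 to 4.12). Casp1, the inflammasome protease, stood at 15.7 CPM in GOF and 9.09 CPM in control cells, a ratio of 1.73 (1.59 to 1.88). In male-called cells the ratios were 2.34 for Casp12 and 1.60 for Casp1.

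None of 9 death receptor pathway genes passed 1.5-fold in either direction. Ripk1, the kinase at the fork between survival and death downstream of the receptors, was closest, at 29.3 CPM in GOF and 19.7 CPM in control cells (log2 0.57), followed by Ripk3, a kinase of necroptosis, at 0.36. None of 7 genes of the mitochondrial gate and the factors it releases passed either, with log2 ratios of 0.22 for Bid, which links Casp8 to the mitochondrion, and 0.18 for Aifm1. The same held for 7 apoptosome regulators (Aven, 0.19; Hspa1b, -0.15) and 4 inhibitors of apoptosis other than Survivin. Among the inhibitors, Xiap, which blocks Casp9, stood at 51.7 CPM in GOF and 40.8 CPM in control cells (log2 0.34), and Birc6 had a log2 ratio of 0.17. In male-called cells Xiap, an X-linked gene, stood at 46.6 CPM in GOF and 41.2 CPM in control cells.

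Downstream, none of 9 caspase substrates passed 1.5-fold, with a median log2 ratio of 0.29, against 0.08 over all features. Rock1, whose cleaved kinase drives blebbing, stood at 158 CPM in GOF and 123 CPM in control cells, and Acin1, a chromatin condensation factor, at 142 CPM in GOF and 111 CPM in control cells. None of 11 p53 targets passed (median 0.04), the highest log2 ratios being those of the BH3-only gene Pmaip1 (0.41) and the cell cycle inhibitor Cdkn1a (0.41). In male-called cells Pmaip1 was at 2.79 CPM in GOF and 2.89 CPM in control cells. Of the 13 respiratory partners of cytochrome c, 1 was lower in GOF cells, the complex IV subunit Cox7b, at 332 CPM in GOF and 613 CPM in control cells (log2 -0.89), and at 368 CPM in GOF and 618 CPM in control cells called male. The list median was -0.11, and Uqcrh stood at -0.22. Of 5 measured mitochondrial biogenesis factors none passed (Tfam, 0.30; Nrf1, -0.14), nor did any of 9 genes of the dissociation response (Atf3, -0.57; Egr1, 0.37).

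**Figure D5:**
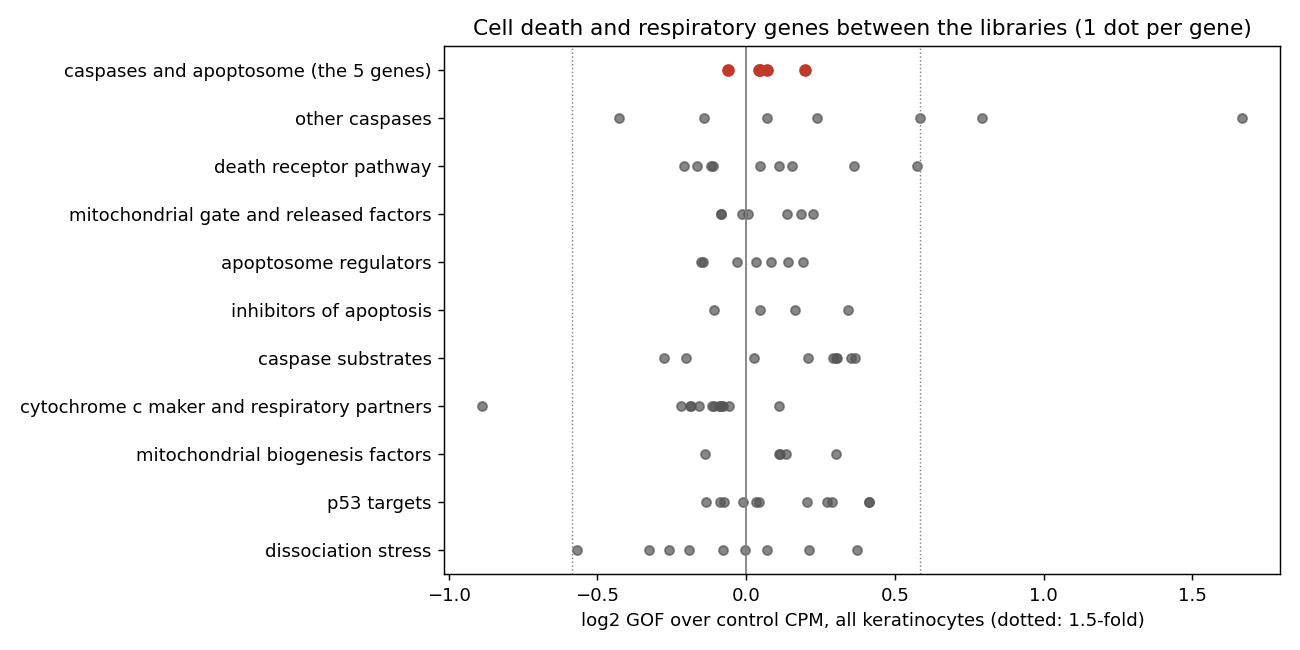
Log2 ratio of GOF to control CPM over all keratinocytes (horizontal axis) for the 5 genes (red) and for each gene of 10 lists around them (grey, rows); dotted lines mark 1.5-fold. The 5 genes lie between -0.06 and 0.20, and Casp12, Casp1 and Cox7b lie past the dotted lines.

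Another caspase, named here after its values were seen, also differed by cell state. Casp14, the caspase of the cornifying epidermis, stood at 28.0 CPM in suprabasal and 6.29 CPM in basal-high GOF cells, and at 44.5 CPM in suprabasal and 6.03 CPM in basal-high control cells, opposite to Casp6.

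Within the GOF library, Survivin transcript content was set beside the members in cells low in cycle genes. In basal-high cells Apaf1 stood at 3.30 CPM (1.81 to 5.54) in cells with under 4 Birc5 UMIs per 10000, 4.27 CPM (2.05 to 7.85) at 4 to 8 and 4.38 CPM (2.94 to 6.30) at 8 or more. In hedgehog-high cells the same bins had 8.90 CPM (5.28 to 14.1), 10.2 CPM (5.07 to 18.2) and 12.4 CPM (8.02 to 18.3). The Apaf1 values rose from bin to bin in the basal-high and hedgehog-high cells shown, while the intervals overlapped. Ungated and suprabasal cells were binned in the same way, and their values are not given here. No ratio between bins was computed, and a difference with Birc5 content was not tested. Casp9 stood at 6.37, 6.83 and 5.44 CPM in the basal-high bins, and Cycs at 84.5, 74.2 and 84.2 CPM.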

How the data were processed

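Counts of UMIs per gene and barcode were used as the authors deposited them: whole numbers, not normalized, 32286 features, 11438 GOF and 24844 control barcodes. Cell Ranger 6.1.1, R 4.3.0, Seurat 4.2.0 and mm10 are named in the submitters' processing notes. The labels give 8046 control cells, beside 10993 that passed the filter used here (6922 GOF cells passed). Scrublet in scanpy 1.11.5 marked 0 doublets with its automatic threshold in each library, so the top 6% of scores were removed (428 GOF and 699 control cells). Cells with 20 or more melanocyte or immune marker UMIs per 10000 were set aside (124 melanocyte and 60 immune GOF cells, 142 melanocyte and 60 immune control cells). A cell was assigned to the state whose gate its marker content exceeded by the highest multiple. The gates were set after the marker distributions had been seen, in place of a planned cut at 1 SD, under which control cells passed on low, widely spread marker transcripts.

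UMIs were summed per library and population and scaled to CPM in Python 3.11.15 (scipy 1.17.1). Levels carry exact Poisson intervals and ratios exact conditional intervals, both for counting error only. No test was run, since each genotype has 1 library. Features with at least 50 pooled UMIs were counted past 1.5-fold. The calculation was tested on simulated data. Of the features, 32235 were found in GENCODE vM21, which gave coordinates, and near copies were searched with blastn 2.17.0. Promoters are RefSeq's.

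The members, marker lists and gene lists were chosen with earlier results of these data known. Named besides the members were, per list, the 2 genes with the largest absolute log2 ratio, and per member the 5 genes with the highest r among genes with at least 500 pooled UMIs. The libraries shared 84 barcodes in all. Bulge markers had no separate mode and were not used. Alternatives were other filters, scalings, gates, sexes, phases, folds and thinning. Protein sequences were not used here. Some genes that these rules name are not reported here.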

Additional observations from a re-analysis of the deposited data

How the results depend on the processing

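No paired analysis was possible because there is 1 library per genotype, and no replicate could be left out. No value changed sign past 1.5-fold. Of 84 alternative values of the main comparisons 65 stayed close to the main value. Close meant within counting error or, for counts of features past a fold, within 1.5-fold of the main count. Over all keratinocytes the log2 ratio of GOF to control for Casp6 (0.04) was -0.086 with at most 5% mitochondrial UMIs, 0.23 with cells thinned to 3000 UMIs and 0.16 without cells holding a mitotic UMI. For Cycs (-0.06) it was -0.14 with median-of-ratios scaling, 0.10 in male-called cells, 0.0058 with states weighted equally and -0.14 without cells holding a mitotic UMI. The signs of these small ratios are thus not settled, and the causes were not tested. Casp6 in suprabasal over basal-high GOF cells was -0.997 in male-called cells (main value -1.58). Apaf1 in hedgehog-high over basal-high control cells was 0.47 in low-cycle cells (1.11), under the 1.5-fold bound. Cycs in sebaceous over basal-high cells was 1.19 with a 1 SD cut, 1.54 in low-cycle cells and 1.74 thinned in the GOF library (1.34), and 0.92, 1.79 and 1.74 in the control library (1.56). At 1.5 SD 13 GOF and 6 control basal-high cells were left, and these contrasts got no value. With no minimum of UMIs 3898 features were higher and 3257 lower past 1.5-fold, and past a bound of 25% (upper over lower level) 2814 were higher and 1620 lower (970 and 797 as reported). Of 133 alternative ratios within states 10 moved beyond counting error, of 200 levels 36, and of 20 phase differences 7. The sebaceous, tail scale and upper follicle pools are small, and libraries were not replicated.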

Other observations

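The cells set aside also carried the 5 genes. Melanocyte-marker cells had 13.5 CPM of Apaf1 (8.98 to 19.5) in the GOF and 13.4 CPM (8.05 to 20.9) in the control library, above the levels of most keratinocyte states, and 12.5 CPM of Casp9 (8.20 to 18.4) in the GOF and 12.0 CPM (6.97 to 19.2) in the control library. These 124 GOF and 142 control cells also held Krt14, at 20042 CPM in GOF and 17440 CPM in control cells, so they carry keratinocyte transcripts. Immune-marker cells, 60 in each library, had 77.3 CPM of Cycs in the GOF and 83.0 CPM in the control library.

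Barcodes that failed the cell filter differed from kept keratinocytes in the members. They had 14.9 CPM of Apaf1 in the GOF and 9.68 CPM in the control library, 14.2 CPM of Casp9 in GOF and 10.8 CPM in control, and 44.1 CPM of Cycs in GOF and 78.3 CPM in control. Kept keratinocytes had 6.60 CPM of Apaf1 in GOF and 5.75 CPM in control, 7.35 CPM of Casp9 in GOF and 7.13 CPM in control, and 99.4 CPM of Cycs in GOF and 104 CPM in control. Casp8, at 25.5 CPM in failing GOF and 24.4 CPM in failing control barcodes, differed less.

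Thinned to 3000 UMIs, 63.3% of GOF and 63.6% of control keratinocytes held no UMI of any of the 5 genes, 32.6% of GOF and 32.5% of control cells held UMIs of 1 of them, and 3.89% of GOF and 3.76% of control cells of 2. No cell type known to lack these genes was at hand to set a background share.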
